A study of Mus musculus with 24 samples.

Results

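The mouse mammary carcinoma line EO771, made to express the chemokine receptor CCR7, held cells with podoplanin (PDPN) on their surface, and PDPN-positive and PDPN-negative cells were sorted apart. Here the RNA of the PDPN-positive sort (CCR7-PDPN) was compared with that of the PDPN-negative sort (CCR7), over all genes, in the 8 batch 1 libraries of these populations, 4 of each, out of 24 libraries in the series. The libraries were chosen by their labels and not by any measured value. Both populations were made by retroviral transduction of EO771, a line of C57BL/6 origin, with pLNCX2 vectors carrying mouse Ccr7 cDNA and the reporter tdTomato. Both were enriched for tdTomato and CCR7 by flow sorting, so that they share receptor, reporter and vector and differ in the sort on PDPN that arose without further treatment. X2, the vector control without Ccr7, had 4 libraries in the same batch and is given where it places a value. The cells were grown in culture, no clone was picked, and the 4 libraries of a population are technical replicates of 1 sorted population. The p-values below therefore measure the spread between these libraries and not that between independently sorted populations.

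Podoplanin is a small, heavily glycosylated membrane protein of lymphatic endothelium and of the fibroblastic reticular cells of lymph nodes, and its short cytoplasmic tail binds ezrin and moesin, which link the membrane to actin. CCR7 is the receptor by which dendritic cells and naive T cells home to lymph nodes. Interferon-stimulated genes, which recur below, encode antiviral effectors and the sensors and transcription factors that induce them, and many are transcribed at a low level in cells without infection.

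Total counts ranged from 22275468 to 33395418 per library, and a count of 0 allows up to 3 counts, or 0.0898 to 0.135 CPM (counts relative to library size, as scaled with TMM factors). One library stood apart. In CCR7 replicate 1, 149 genes lay more than 1.5-fold outside the range of the other 3 libraries of its group, against 2 to 48 genes in each of the other 7 libraries. On the first principal component, which held 55.7% of the variance, it scored 16.3, below the other CCR7 libraries (23.7 or more) and above the CCR7-PDPN libraries (-24.1 to -20.9). Several results that lean on it are given with and without it. Many markers of other cell types were at or near 0: 10 of 11 T and B cell markers and 6 of 10 endothelial markers had at most 3 counts in every library of each sort. So did 7 of 12 myeloid markers in each sort, and 6 of 10 fibroblast markers in CCR7-PDPN and 5 in CCR7. In X2 this held for 9 of the T and B cell markers. The 12 myeloid markers summed to 9.77 to 12.2 CPM in CCR7-PDPN, 16.2 to 21.8 CPM in CCR7 and 52.5 to 61.7 CPM in X2, with Adgre1, Aif1 and Ly6g at 0 in both sorts. Of the 3 myeloid markers tested, Cd68 and Lyz2 were lower in CCR7-PDPN than in CCR7, with log2 fold changes of -0.82 and -1.37. The 10 fibroblast markers summed to 209 to 223 CPM and 225 to 261 CPM in the sorts, with Lum and Thy1 at 0. The part of these markers in the results was not tested. The 8 genes listed for EO771 identity, Vim and Krt8 among them, summed to 3130 to 3209 CPM and 2656 to 2871 CPM. Only 4 of the 8 were expressed enough to be tested. In each sort 2 had at most 3 counts in every library, with Cdh2 at 0.

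The sort could be read in the RNA. Pdpn (chr4:143267431-143299564, minus strand, GRCm38) had 26.5, 26.9, 25.2 and 23.6 CPM in the CCR7-PDPN libraries and 0.619, 0.418, 0.300 and 0.315 CPM in the CCR7 libraries. The groups were far apart, and 7 to 20 reads of Pdpn per library remained in the PDPN-negative sort. The difference was 60.2-fold, or 5.91 on the log2 scale (SE 0.13, adjusted p = 2.3e-18 by the quasi-likelihood test of edgeR, with Benjamini-Hochberg correction). In bulk RNA, fewer cells with a transcript and less transcript per cell cannot be told apart, which holds for every difference below. Ccr7 had 2814 to 3120 CPM in CCR7-PDPN and 2714.5 to 2861 CPM in CCR7, with overlapping libraries. Its log2 fold change was 0.11 (adjusted p = 0.042 by the same edgeR test), a call that was lost with the replicate number as a block (adjusted p = 0.078). Reads from the transduced cDNA and from the gene itself could not be told apart.

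Col6a3 (chr1:90765923-90843971, minus strand) encodes the alpha-3 chain of collagen VI, a network collagen around cells. After Pdpn and Gm13652, it had the largest rise among genes without overlap and with a mean log2 CPM of 1 or more. Its libraries held 136, 136, 143 and 115 CPM in CCR7-PDPN and 12.1, 19.2, 13.9 and 16.6 CPM in CCR7, and X2 held less than either, at 1.71 to 2.18 CPM. The difference was 8.65-fold. Per transcript length, Col6a3 stood at 4.85 TPM in CCR7 and 40.9 TPM in CCR7-PDPN, while the other chains were already more abundant. Col6a1 stood at 310 and 432 TPM, and Col6a2 at 58.8 and 84.9 TPM, in the same order. On the log2 scale Col6a1 rose by 0.51 (SE 0.03) and Col6a2 by 0.56 (SE 0.04), so that the chain with the lowest level rose most.

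Among the lower genes, Pmaip1, which encodes the pro-apoptotic BH3-only protein NOXA, had 0.221, 0.0641, 0.0704 and 0.102 CPM in CCR7-PDPN against 1.70, 1.81, 1.98 and 2.57 CPM in CCR7. Bicd1 (chr6:149408886-149563329, plus strand), an adaptor of the dynein motor, had 0.339 to 0.630 CPM in CCR7-PDPN and 7.00 to 8.69 CPM in CCR7. Il7 (chr3:7569994-7613760, minus strand), the cytokine that keeps lymphocytes alive, had 2 to 6 reads per library in CCR7-PDPN and 62 to 84 in CCR7. In none of these genes did the populations overlap, and Il7 and Pmaip1 in CCR7-PDPN lay close to the limit of detection. Bche (chr3:73635808-73708415, minus strand), butyrylcholinesterase, had 0.410, 0.609, 0.528 and 0.339 CPM in CCR7-PDPN against 6.22, 7.03, 6.46 and 6.75 CPM in CCR7. The vector control placed these genes differently. For Bche, X2 was as low as the PDPN-positive sort, at 0.247 to 0.408 CPM. Il7 in X2 was as high as in the PDPN-negative sort (2.47 to 2.91 CPM), and Pmaip1 in X2 was higher than in either (5.60 to 7.22 CPM). The log2 fold changes were -4.05 for Pmaip1 (SE 0.29), -3.94 for Bicd1 (SE 0.15), -3.80 for Bche (SE 0.15) and -4.10 for Il7 (SE 0.22). Bicd1 and Il7 each overlap a non-coding gene on the other strand.

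**Figure D1:**
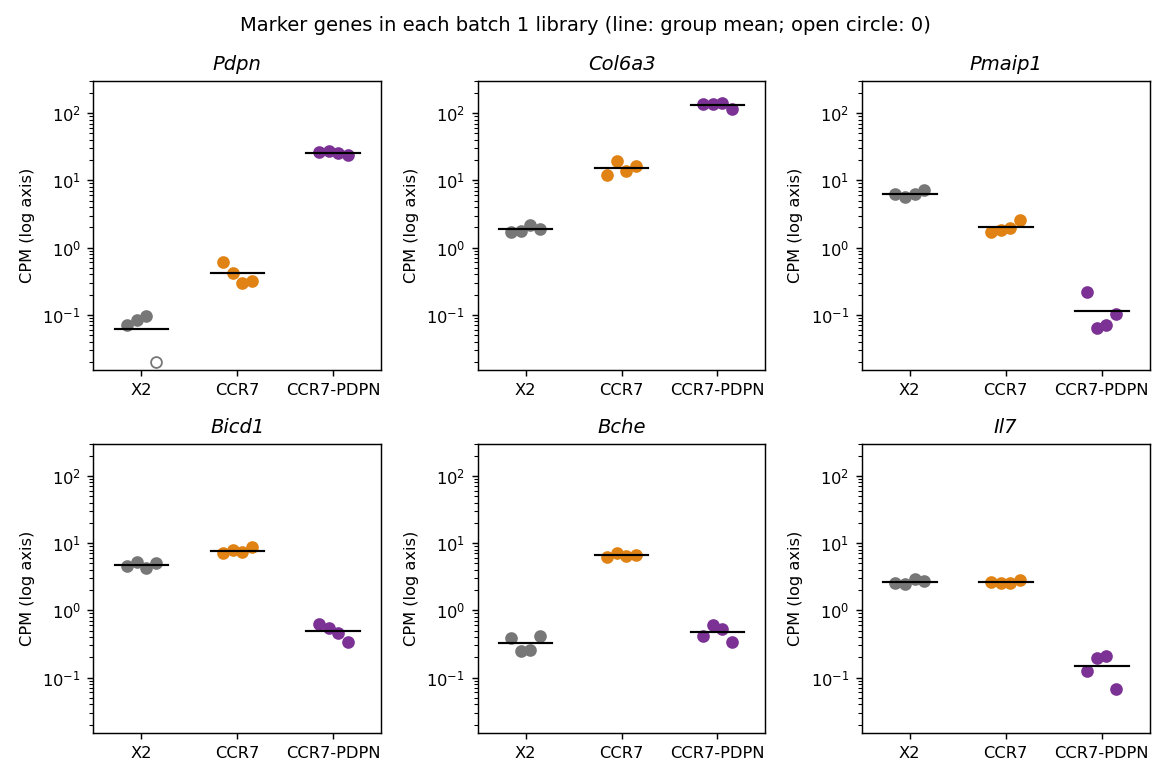
CPM of Pdpn, Col6a3, Pmaip1, Bicd1, Bche and Il7 on a log axis in each of the 12 batch 1 libraries, with points for libraries, lines for group means of 4 and an open circle for a library at 0. CCR7-PDPN lies above CCR7 for Pdpn and Col6a3 and below it for the other 4 genes, and Bche is high in CCR7 alone of these 3 populations.

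Over all genes, large changes were mostly towards lower levels in the PDPN-positive sort. Of 13261 genes tested, 88 (0.664%) were higher and 345 (2.60%) lower, or 3.27% in all, past both limits, which were 0.05 for the adjusted p and 1 for the log2 fold change in either direction. Most of these genes were weakly expressed: 39 of the 88 and 159 of the 345 had under 1 CPM in both populations, and 9 and 38 had 10 CPM or more in the higher one. Falls were also deeper, with 101 of 345 lower genes and 12 of 88 higher genes beyond a log2 fold change of 2. With the p limit alone the counts were even, 2766 higher (20.9%) and 2747 lower (20.7%), and the median log2 fold change over all genes was -0.003. The libraries of the populations did not overlap in 4527 genes (34.1%). X2 lay nearer to CCR7 than to CCR7-PDPN for 285 of the 345 lower genes and 57 of the 88 higher genes. For 214 of the lower genes X2 was above both sorts, which by itself places it nearer to CCR7, and for 109 it lay between them. Among the higher genes X2 was below both sorts for 37, which again by itself places it nearer to CCR7, between them for 37 and above both for 14. These positions are given for the called genes only, without a share over all genes. Without CCR7 replicate 1 the counts were 112 higher and 368 lower.

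**Figure D2:**
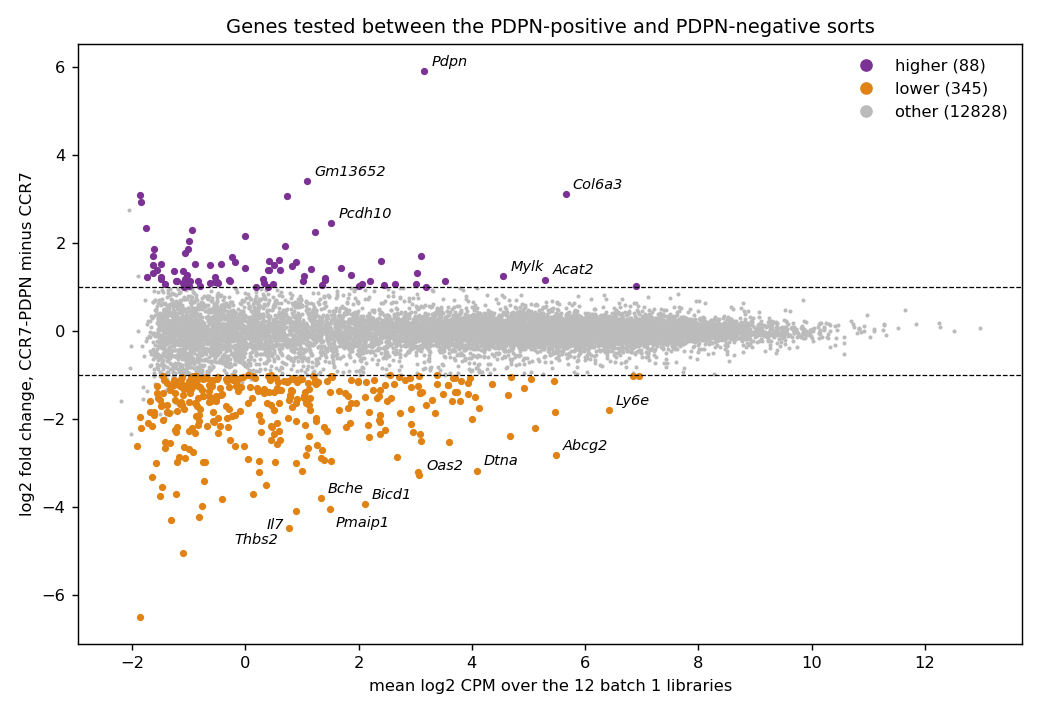
Log2 fold change of CCR7-PDPN against CCR7 for 13261 genes, plotted over their mean log2 CPM in the 12 batch 1 libraries. Coloured points are the 88 higher and the 345 lower genes, grey points all others, and dashed lines mark a log2 fold change of 1 in either direction, with more and deeper falls than rises.

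The other large rises were mostly at modest levels. They were taken from genes whose mean log2 CPM was 1 or more and whose libraries did not overlap. That mean covered the 12 batch 1 libraries, X2 included, so a gene high in X2 could pass through X2. Gm13652, a long non-coding RNA gene, had 4.89, 6.02, 5.59 and 5.28 CPM in CCR7-PDPN and 0.450 to 0.601 CPM in CCR7, a 10.7-fold difference, and at most 0.136 CPM in X2. Pcdh10, a protocadherin of cell-cell contacts, had 4.66, 4.45, 3.84 and 3.49 CPM against 0.743, 0.592, 0.841 and 0.810 CPM, and 3.17 to 3.87 CPM in X2. Shank3, a scaffold protein of synapses, had 3.59 to 4.50 CPM in CCR7-PDPN, 1.18 to 1.76 CPM in CCR7 and 3.53 to 3.83 CPM in X2. For Pcdh10 and Shank3 it was the PDPN-negative sort that stood away from the vector control. Bin2, a BAR-domain protein that binds curved membranes, had 12.7 to 14.4 CPM against 3.69 to 4.50 CPM. Bcl11b, a zinc-finger factor known from T cell development, had 12.8 to 13.9 CPM against 4.67 to 5.65 CPM. Sema6d, a membrane-bound semaphorin, rose by 1.28 on the log2 scale (SE 0.12).

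Stard8, a GTPase-activating protein, and Vasn, which binds TGF-beta, met the level limit only with X2 in the mean. X2 was far above both sorts, which this way of choosing genes favours. Stard8 had 0.457 to 0.788 CPM in CCR7-PDPN, 0.135 to 0.270 CPM in CCR7 and 12.7 to 15.9 CPM in X2. Vasn, which shares its locus with Coro7 and Dnaja3, had 0.946 to 1.28 CPM, 0.18 to 0.650 CPM and 4.75 to 5.38 CPM in the same order. Evi2a, a membrane protein gene that overlaps Nf1 and Evi2, had 1.28 to 1.89 CPM, 0.522 to 0.712 CPM and 3.51 to 4.15 CPM. In all 3 genes, Evi2a included, the level limit was met through X2, and the PDPN-positive sort stayed below the vector control. Gm43800 (log2 fold change 2.25, SE 0.18) lies within 2210408F21Rik on the same strand, so its reads may belong to either.

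Abcg2, the drug efflux pump, was the best expressed of the 12 largest falls, with 11.9, 10.2, 12.3 and 10.4 CPM in CCR7-PDPN against 74.3, 80.1, 84.6 and 77.7 CPM in CCR7. The difference was 7.06-fold, and X2 lay between at 41.8 to 44.5 CPM. Dtna, which encodes alpha-dystrobrevin of the dystrophin complex, had 2.15 to 2.57 CPM against 18.9 to 24.1 CPM. Cyfip2, a subunit of the WAVE complex that drives actin branching, had 1.17 to 1.76 CPM in CCR7-PDPN against a mean of 14.3 CPM in CCR7 (SD 1.40, n = 4). Adamts6, a secreted metalloproteinase, had 0.347 to 0.457 CPM against 3.33 to 3.76 CPM. Each of these genes had at least 9-fold more in the PDPN-negative sort, apart from Abcg2. Aig1, a membrane lipid hydrolase, and Map2k6, a kinase upstream of p38, fell by 2.94 (SE 0.24) and 2.92 (SE 0.24) on the log2 scale. Tbx4, a T-box factor of hindlimb and lung development, had 0.141 to 0.224 CPM in CCR7-PDPN, 1.11 to 1.49 CPM in CCR7 and 5.52 to 6.33 CPM in X2. Its level thus stepped down from X2 to CCR7 and again to CCR7-PDPN, as did that of Map2k6 (X2 at 4.05 to 5.81 CPM, CCR7 at 1.73 to 2.91 CPM, CCR7-PDPN at 0.224 to 0.387 CPM). The level limit used a mean that included X2, which favours genes high in X2, such as Tbx4 and Map2k6.

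Interferon-induced effectors were mostly lower. Of 60 tested, 48 were lower and 2 higher by the p limit alone, against 20.7% and 20.9% of all genes, and 26 were lower past the fold limit, against 2.60%. Their median log2 fold change was -0.89, and 44 of the 60 had no overlap, against 34.1% of all genes. Their mean log2 CPM, relative to X2, lay between -1.44 and -1.33 in the CCR7-PDPN libraries and between -0.70 and -0.51 in the CCR7 libraries. Both sorts were thus below the vector control, the PDPN-positive one by more. Without CCR7 replicate 1 the counts were again 48 and 2, with 25 past the fold limit.

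The element that interferon-activated transcription factors bind, the interferon-stimulated response element, was searched as TTTC, any 2 bases and TTTC on both strands of RefSeq promoters (GRCm38.p6, from 250 bases before to 50 after the start). It was in 3.44% of 32851 promoters, or 3.99% of 27025 genes, and in 29 of the 49 tested effectors with an entry (59.2%). The stretches below, up to the start of the gene at most, show it in 5 effectors that fell and in Slfn9, which did not pass the test. The first match is in capitals, in the direction of the gene, and reads GAAA, any 2 bases and GAAA where the element is on the other strand.
Ifit3 (chr19:34583348-34583407, plus strand): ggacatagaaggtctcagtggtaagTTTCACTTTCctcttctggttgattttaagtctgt
Oas1a (chr5:120907526-120907570, minus strand): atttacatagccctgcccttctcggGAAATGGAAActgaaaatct
Oas3 (chr5:120777700-120777759, minus strand): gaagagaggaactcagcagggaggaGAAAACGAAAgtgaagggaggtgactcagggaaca
Rsad2 (chr12:26456538-26456597, minus strand): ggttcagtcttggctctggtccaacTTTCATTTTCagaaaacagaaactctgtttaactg
Isg15 (chr4:156200862-156200921, minus strand): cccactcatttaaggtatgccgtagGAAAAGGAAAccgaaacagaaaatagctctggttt
Slfn9 (chr11:82991841-82991900, minus strand): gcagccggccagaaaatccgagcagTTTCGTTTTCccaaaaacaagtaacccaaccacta
The match ended 10 bases before the start in Oas1a, 35 in Slfn9, 65 in Oas3, 68 in Isg15, 110 in Rsad2 and 146 in Ifit3. Of the 29 effectors with a match, 22 were lower by the p limit and 11 past the fold limit, and of the 20 without a match in this window, 17 and 9. Ifit2 and Ifi44 were lower without a match here, and Ifitm2 was higher with one.

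The oligoadenylate synthetases, which make the activator of RNase L, fell together. Oas2 had 1.39, 0.961, 0.844 and 0.779 CPM in CCR7-PDPN against 9.41, 10.1, 10.6 and 8.33 CPM in CCR7. Oas3 had 6.40 to 7.94 CPM against 27.4 to 36.1 CPM, and Oas1a 3.35 to 4.54 CPM against 15.1 to 16.8 CPM. These 3 neighbours on chromosome 5, and Oas1g beside them (0.176 to 0.630 CPM against 2.07 to 2.76 CPM), did not overlap between the sorts, although reads of the near copies Oas1a and Oas1g may be split between them. Ifit2, one of the IFIT proteins that bind foreign RNA, had 4.93 to 6.27 CPM against 28.7 to 30.2 CPM. Ifit3 had 1 read over the 4 CCR7-PDPN libraries against 4 to 19 reads in each CCR7 library and 16 to 29 in each X2 library. Ly6e, a surface protein known to restrict coronaviruses, was the best expressed of the effectors named here that fell past the fold limit. It had 23.2, 24.3, 22.8 and 22.7 CPM against 81.8, 81.4, 82.1 and 78.3 CPM, and 143 to 160 CPM in X2. Smaller and larger falls stood side by side. Rtp4 fell by 2.24 (SE 0.16), Ifi27l2a by 2.34 (SE 0.10), Slfn2 by 2.11 (SE 0.15) and Ifi44 by 2.86 (SE 0.17) on the log2 scale. The log2 fold changes were -0.89 for the ubiquitin-like modifier Isg15 (SE 0.09), -0.82 for Bst2, which encodes tetherin (SE 0.05), and -1.05 for Rsad2, which encodes viperin (SE 0.12). Rsad2 passed the fold limit only with CCR7 replicate 1, as its log2 fold change without it was -0.96. The 2 higher members were Ifitm2 (0.37, SE 0.04), which has near copies, and Pml (0.17, SE 0.04), the scaffold of nuclear bodies. Slfn9 had 80.9 to 83.2 CPM against 74.2 to 93.9 CPM.

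Upstream of these effectors the picture was mixed, with 11 of 28 sensing and signalling genes lower and 7 higher, against 20.7% and 20.9% of all genes, and a median of -0.02. Without CCR7 replicate 1, 11 were lower and 10 higher, with a median of -0.03. Irf7, the transcription factor that amplifies the response, had 4.03, 3.49, 3.55 and 2.40 CPM in CCR7-PDPN against 9.69, 10.4, 8.89 and 6.98 CPM in CCR7. Usp18, which removes ISG15 and damps the receptor, had 0.576 to 1.80 CPM against 4.01 to 6.22 CPM. The RNA sensor gene Ifih1 had 0.977 to 1.34 CPM against 3.02 to 5.19 CPM. These 3 genes were the members past the fold limit, and all were higher still in X2. Ddx58, the gene of the sensor RIG-I (-0.80, SE 0.04), and Irf9 (-0.64, SE 0.07) fell by less on the log2 scale. The receptor chain gene Ifnar1 (0.22, SE 0.04) and Irf8 (0.43, SE 0.05) rose. Stat2 had 40.1 to 41.9 CPM against 43.1, 33.9, 31.3 and 28.9 CPM, with CCR7 replicate 1 above all CCR7-PDPN libraries. Its log2 fold change was 0.26 (adjusted p = 0.044 by the same edgeR test) and 0.39 without that replicate, and the call was lost without any 1 of the other 7 libraries.

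**Figure D3:**
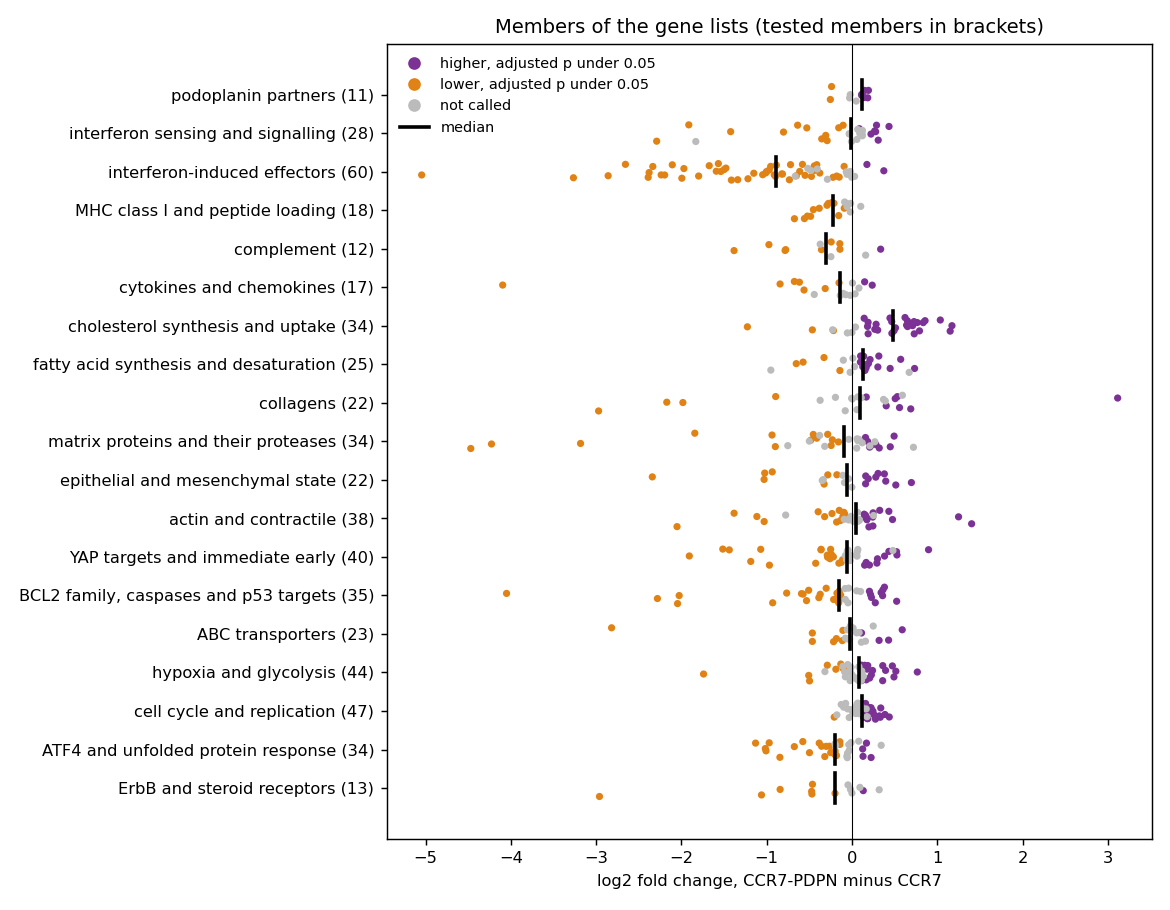
Log2 fold change of CCR7-PDPN against CCR7 for the tested members of 19 gene lists, with 1 point per gene, coloured where past the p limit, and a black bar at each list's median. The effectors (median -0.89) and the cholesterol genes (median 0.48) lie furthest from 0, and most other lists hold members on both sides.

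MHC class I genes, which present peptides to CD8 T cells, fell moderately. Of 18 genes of class I and peptide loading, 12 were lower, against 20.7% of all genes, and the other 6 did not pass the test, with a median of -0.23. B2m, the light chain of every class I molecule, had 405, 398, 408 and 442 CPM in CCR7-PDPN against 519, 589, 592 and 563 CPM in CCR7, and 755 to 771 CPM in X2. H2-D1 had 468 to 489 CPM against 615 to 648 CPM, and H2-K1 36.2 to 39.3 CPM against 52.1 to 60.1 CPM. The sorts did not overlap in these genes, and H2-K1 and H2-D1 are near copies whose reads may be shared. The immunoproteasome gene Psmb8 (-0.68, SE 0.08), the peptide transporter gene Tap1 (-0.29, SE 0.05) and Psmb9 (-0.52, SE 0.14), which overlaps it on the other strand, also fell.

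Of 12 complement genes, 8 were lower and 1 higher, against 20.7% and 20.9% of all genes, with a median of -0.30. C1s1 and C1ra, the proteases of the C1 complex, had 4.71 to 6.23 CPM against 13.8 to 14.8 CPM and 5.57 to 6.19 CPM against 10.5 to 12.1 CPM. Their neighbour C1rl moved the other way, with 17.4 to 19.1 CPM against 13.7 to 14.9 CPM. C3, the central component, had means of 33.8 and 57.9 CPM (SD 1.47 and 6.62, n = 4) and 141 to 147 CPM in X2. Of 17 cytokine and chemokine genes, 7 were lower and 2 higher, beside 20.7% and 20.9% of all genes. Besides Il7, Ccl25, a chemokine of thymus and gut, had 7.14 to 8.55 CPM against 12.8 to 14.8 CPM, with X2 at 6.29 to 7.42 CPM. Ccl2, which attracts monocytes, had 27.8 to 30.1 CPM against 40.2 to 47.5 CPM. Cxcl10, the interferon-induced ligand of CXCR3, fell by 0.68 on the log2 scale (SE 0.18).

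Genes of cholesterol synthesis and uptake rose together. Of 34, 27 were higher and 3 lower by the p limit alone, against 20.9% and 20.7% of all genes, with a median of 0.48, and 29 had no overlap, against 34.1% of all genes. Their mean log2 CPM relative to X2 lay between 0.51 and 0.55 in CCR7-PDPN, and at 0.23 in CCR7 replicate 1 and 0.07 to 0.12 in the other CCR7 libraries. That replicate thus lay towards the PDPN-positive sort, and without it the median was 0.54. Acat2, which joins the first acetyl groups, had 66.4, 67.9, 63.4 and 59.4 CPM in CCR7-PDPN against 35.4, 26.8, 26.0 and 25.6 CPM in CCR7. Mvd, of the mevalonate steps, had 207 to 223 CPM against 95.3 to 129 CPM, and Tm7sf2, a sterol reductase, 16.6 to 20.8 CPM against 7.25 to 9.13 CPM. These 3 passed the fold limit. Hmgcs1, an early synthase of the pathway, had 293 to 321 CPM against 151 to 209 CPM. The regulators moved less: Insig1, the sterol-responsive retention factor, rose by 0.65 (SE 0.06) and Srebf2, the master transcription factor, by 0.30 (SE 0.03) on the log2 scale. The 3 lower members included Lipa and Abcg1. Lipa, the lysosomal lipase that frees cholesterol from its esters, had 3.37 to 4.60 CPM against 8.92 to 9.61 CPM, and Abcg1, which exports cholesterol, 54.9 to 59.4 CPM against 75.3 to 84.2 CPM.

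One form of the sterol regulatory element, TCACNCCAC, was searched on both strands. It was in 1.24% of all promoters, or 1.44% of all genes, and in 1 of the 24 tested cholesterol genes with an entry (4.17%). That gene was Hmgcs1, shown here with the element in capitals, ending 128 bases before the start.
Hmgcs1 (chr13:119690189-119690247, plus strand): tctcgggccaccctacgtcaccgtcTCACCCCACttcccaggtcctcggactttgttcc
The E-box CACGTG was in 5 of the 24, and in 7.15% of all promoters, or 8.09% of all genes.

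Of 25 genes of fatty acid synthesis and desaturation, 15 were higher and 4 lower, against 20.9% and 20.7% of all genes, with a median of 0.13. Acly, which makes cytosolic acetyl-CoA, had 279 to 298 CPM against 199 to 225 CPM, and Acss2, which makes it from acetate, 17.7 to 19.5 CPM against 9.99 to 12.0 CPM. Acacb rose by 0.57 (SE 0.08) and the desaturase gene Fads2 by 0.30 (SE 0.04) on the log2 scale. Fads3, the related gene of the same cluster, had 97.2 to 100 CPM against 129 to 162 CPM and so moved opposite to Fads2.

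**Figure D4:**
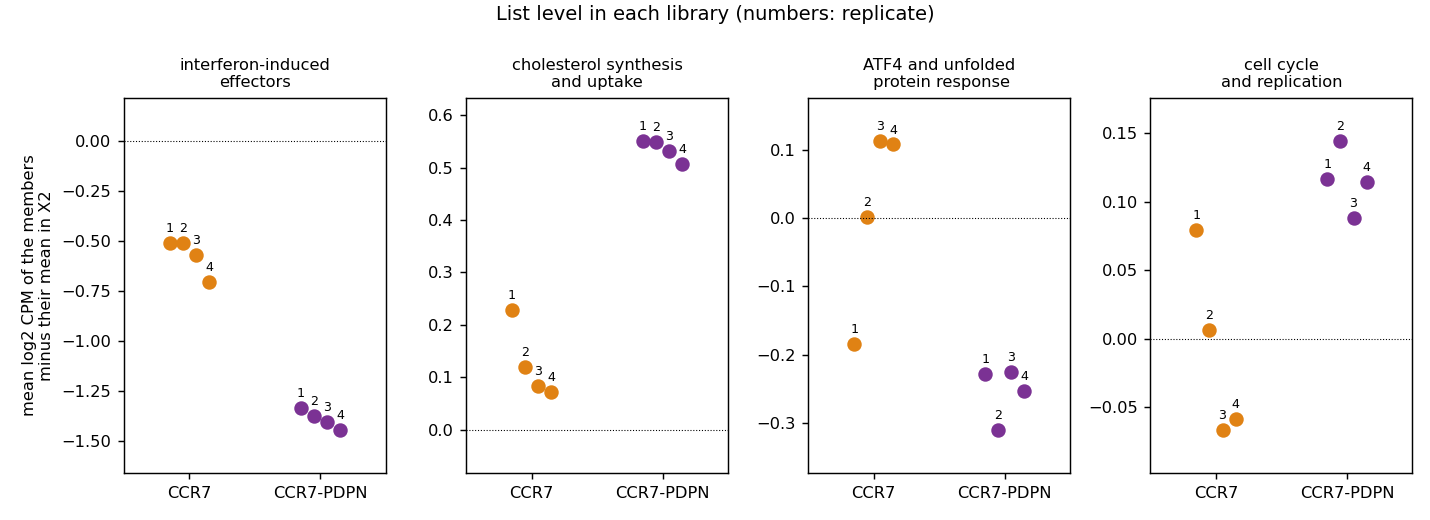
Mean log2 CPM of the members of gene lists, relative to the mean of X2, in each CCR7 and CCR7-PDPN library of batch 1, 1 point per library. The effectors lie at -1.44 to -1.33 in CCR7-PDPN and -0.70 to -0.51 in CCR7, and CCR7 replicate 1 lies towards CCR7-PDPN for cholesterol genes, ATF4 targets and cell cycle genes.

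Collagens did not move as one group. Of 22 tested, 7 were higher and 4 lower, against 20.9% and 20.7% of all genes, with a median of 0.09, and Col6a3 was the member that rose past the fold limit. Without CCR7 replicate 1, 10 were higher and 4 lower, with a median of 0.15. Col18a1, a basement membrane collagen, had 314, 318, 320 and 318 CPM against 194, 198, 197 and 199 CPM, without overlap. Col3a1, a fibrillar collagen, had 24.1 to 27.8 CPM against 18.9 to 21.3 CPM, and 4.60 to 5.47 CPM in X2. Col9a1, of cartilage, had 0.946 to 1.32 CPM against 4.14 to 5.39 CPM, and Col13a1, a transmembrane collagen, 0.0946 to 0.135 CPM against 0.774 to 1.17 CPM. Col15a1 fell by 2.17 on the log2 scale (SE 0.61), at under 1 CPM in both sorts, and Col24a1 by 0.90 (SE 0.14).

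Among 34 matrix proteins and their proteases, 8 were higher and 13 lower, against 20.9% and 20.7% of all genes, with a median of -0.10. Without CCR7 replicate 1 these were 11 and 14, with a median of -0.15. Thbs2, a thrombospondin that restrains vessel growth, had 1 to 6 reads per library in CCR7-PDPN and 52 to 88 in CCR7, a log2 fold change of -4.47 (SE 0.25). Mmp2, a gelatinase, had 0, 0, 1 and 1 reads against 15, 6, 15 and 9. Adamts7 had 0.982 to 1.22 CPM against 3.50 to 4.51 CPM, and Plat, tissue plasminogen activator, 3.53 to 5.08 CPM against 7.89 to 8.78 CPM. Higher were Spp1, which encodes osteopontin, with 76.8 to 78.6 CPM against 53.3 to 59.9 CPM, and the protease gene Mmp19, with 39.0 to 40.9 CPM against 27.6 to 29.3 CPM. X2 held more Spp1 than either sort, at 141 to 143 CPM.

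Of 22 markers of epithelial and mesenchymal state, 9 were higher and 7 lower, against 20.9% and 20.7% of all genes, with members of both classes in each direction. These counts were 9 and 9 without CCR7 replicate 1. Among mesenchymal genes Twist1 had 63.2 to 65.7 CPM against 49.9 to 53.4 CPM and S100a4 9.25 to 10.9 CPM against 5.59 to 6.96 CPM, while Zeb1 had 107 to 110 CPM against 124 to 140 CPM. Prrx1, a homeobox gene of mesenchyme, had 0.387 to 0.643 CPM against 2.02 to 3.33 CPM, and 11.9 to 13.3 CPM in X2. Of epithelial genes, Krt8 rose by 0.28 (SE 0.04) on the log2 scale, and Krt80 and Grhl2 fell by 0.94 (SE 0.06) and 1.03 (SE 0.24). The TGF-beta ligands also went apart: Tgfb3 had 41.5 to 45.4 CPM against 27.8 to 32.3 CPM, and Tgfb2 0.677 to 0.883 CPM against 1.52 to 1.89 CPM.

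Of 38 actin and contractile genes, 14 were higher and 13 lower, against 20.9% and 20.7% of all genes, with a median of 0.04, or 0.03 without CCR7 replicate 1. Tmsb4x, a thymosin that binds actin monomers and has near copies, had the largest change, with 2.75 to 3.21 CPM against 11.9 to 12.6 CPM, and 0.0699 to 0.136 CPM in X2. Mylk, myosin light chain kinase, had 44.9, 47.0, 45.9 and 47.2 CPM against 18.5, 20.5, 19.5 and 19.5 CPM, and 2.91 to 4.45 CPM in X2, so that its level stepped up from X2 through CCR7 to CCR7-PDPN. Actn1, which bundles actin, had 849 to 899 CPM against 620 to 640 CPM. Acta2, smooth muscle actin, had 13.5 to 15.1 CPM against 26.6 to 31.8 CPM, and Actg2, a near copy, 1.58 to 1.63 CPM against 0.433 to 0.900 CPM. Ablim1, which links actin to other proteins, fell by 1.38 (SE 0.08), and Lcp1, the plastin of blood cells, by 1.12 (SE 0.15) on the log2 scale. Among 11 partners of podoplanin, 6 were higher and 2 lower, against 20.9% and 20.7% of all genes. Lgals8, a galectin that binds podoplanin, had 42.6 to 46.8 CPM against 50.2 to 58.2 CPM. Ezr, which encodes ezrin, had 469 to 508 CPM against 419 to 433 CPM, while Msn, which encodes moesin, had 1032 to 1082 CPM against 988 to 1056 CPM and did not pass the test. Cd44, the hyaluronan receptor, had 198 to 206 CPM against 191 to 212 CPM and did not pass it either.

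Of 40 YAP targets and immediate early genes, 18 were lower and 10 higher, against 20.7% and 20.9% of all genes. The matricellular genes Ccn1 and Ccn2, both classic YAP targets, had 25.4 to 27.8 CPM against 49.1 to 56.4 CPM and 3.49 to 4.90 CPM against 9.16 to 11.1 CPM. Ankrd1 had 0.189 to 0.387 CPM against 1.67, 1.08, 1.02 and 1.08 CPM. Btg2, an antiproliferative gene, fell by 1.52 (SE 0.29), the stress factor Atf3 by 1.44 (SE 0.14) and Rnd1, a small GTPase, by 1.07 (SE 0.10) on the log2 scale. Egr1, an immediate early factor, moved the other way, with 1.67 to 1.96 CPM against 0.836 to 1.11 CPM.

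Among 35 genes of the BCL2 family, caspases and p53 targets, 20 were lower and 9 higher, against 20.7% and 20.9% of all genes. Besides Pmaip1, 3 inflammatory caspase genes that are neighbours on chromosome 9 fell past the fold limit. Casp4 and Casp12 are related genes. Casp4 had 0.914 to 1.23 CPM against 3.90 to 4.68 CPM and 9.19 to 10.6 CPM in X2, Casp12 0.474 to 0.563 CPM against 1.83 to 2.46 CPM, and Casp1 0.0641 to 0.169 CPM against 0.418 to 0.650 CPM. Gadd45a, a stress-induced p53 target, fell by 0.93 (SE 0.16) on the log2 scale. The BH3-only genes differed among themselves, as Bbc3, which encodes PUMA, had a log2 fold change of -0.57 (SE 0.08) and Bmf had 38.4 to 41.3 CPM against 27.1 to 29.6 CPM. The survival gene Bcl2 had 8.67 to 9.99 CPM against 11.5 to 15.4 CPM, and fell by 0.59 on the log2 scale (SE 0.08).

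Of 34 targets of ATF4 and the unfolded protein response, 20 were lower and 4 higher, against 20.7% and 20.9% of all genes, with a median of -0.20. Ddit3, which encodes CHOP and overlaps Mars, had 27.4, 19.2, 28.6 and 29.1 CPM against 35.1, 55.0, 72.3 and 66.4 CPM. Trib3 had 128 to 154 CPM against 181 to 312 CPM, Slc7a11, the cystine transporter, 24.4 to 31.2 CPM against 38.1 to 65.1 CPM, and the chaperone gene Hspa5 488 to 530 CPM against 613 to 825 CPM. In each of these genes CCR7 replicate 1 was the lowest CCR7 library, and the median without it was -0.24. Atf5, a factor induced by stress that overlaps Nup62, fell by 1.02 (SE 0.12), and Ppp1r15a, the phosphatase subunit that ends the response, by 1.01 (SE 0.21) on the log2 scale. Asns, another ATF4 target, had 707 to 740 CPM against 694 to 776 CPM and did not pass the test.

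Of 47 cell cycle and replication genes, 25 were higher and 1 lower, against 20.9% and 20.7% of all genes, with a median of 0.12, and 34 and 2 without CCR7 replicate 1. Changes were small. Rrm2, of ribonucleotide reductase, had 225 to 251 CPM against 212, 170, 165 and 165 CPM, Ccnd3, a G1 cyclin, 96.8 to 115 CPM against 75.5 to 86.5 CPM, and the mitotic factor Foxm1 193 to 205 CPM against 148 to 175 CPM. Mki67, the proliferation marker, had 132 to 147 CPM against 130 to 211 CPM and did not pass the test. Of 44 hypoxia and glycolysis genes, 19 were higher and 8 lower, against 20.9% and 20.7% of all genes, with a median of 0.08. These counts were 20 and 10 without CCR7 replicate 1. Car9 and Car12, carbonic anhydrases that respond to low oxygen, went apart: Car9 had 4.86 to 5.79 CPM against 2.75 to 3.31 CPM, and Car12 5.96 to 7.14 CPM against 19.7 to 23.5 CPM. Hif1a, the oxygen-sensitive factor, had 781 to 828 CPM against 610 to 739 CPM, and its target Egln3 177 to 191 CPM against 128 to 131 CPM. The glycolytic gene Pfkl rose by 0.51 (SE 0.04) and Ndrg1, a hypoxia-induced gene, fell by 0.51 (SE 0.06) on the log2 scale. Vegfa had 220 to 244 CPM against 222 to 261 CPM and did not pass the test.

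Of 13 ErbB and steroid receptor genes and their ligands, 7 were lower and 1 higher, against 20.7% and 20.9% of all genes. The higher member was Erbb2, with a log2 fold change of 0.13 (adjusted p = 0.028 by the same edgeR test). Its call was lost under some alternatives. The counts for this list were 7 lower and 2 higher without CCR7 replicate 1. Esr1, the oestrogen receptor, had 0.106 to 0.224 CPM against 0.961 to 1.43 CPM. Erbb3 had 10.5 to 12.5 CPM against 14.6 to 17.8 CPM, and Nrg2, a neuregulin, 5.67 to 5.89 CPM against 9.70 to 11.0 CPM. The growth factor gene Egf fell by 1.06 on the log2 scale (SE 0.22). Of 23 ABC transporters, 7 were lower and 4 higher, against 20.7% and 20.9% of all genes. Of 24 tested without CCR7 replicate 1, 9 were lower and 4 higher. Beside the fall of Abcg2, Abcc3, an exporter of conjugates, had 78.2 to 87.7 CPM against 52.4 to 58.9 CPM and 23.1 to 24.5 CPM in X2.

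The called genes were spread over the chromosomes. The share of tested genes that were lower past both limits ran from 1.05% on chromosome 17 (7 of 665) to 4.92% on chromosome 1 (36 of 731), with 4.65% on chromosome 3 (30 of 645), against 2.60% over all. On chromosome 7, 14 of 1059 genes were higher (1.32%), against 0.664% over all.

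CCR7-PDPN was sequenced again in batch 2, whose table was normalised separately. Its means there were 24.6 CPM for Pdpn, 139 for Col6a3, 5.57 for Gm13652, 0.214 for Pmaip1, 0.484 for Bicd1, 0.537 for Bche, 0.250 for Il7, 1.50 for Cyfip2 and 11.0 for Abcg2. The same batch held a PDPN-positive sort of cells without Ccr7 (X2-PDPN, 4 libraries) beside X2, and the difference between these is given here for the named genes. Of 13314 genes tested there, 3.51% were higher and 1.55% lower past both limits in X2-PDPN against X2, and 3.96% and 5.67% in CCR7-PDPN against X2. Pdpn had a log2 fold change of 7.25 there and 5.91 here, Col6a3 2.77 and 3.11, Oas2 -4.85 and -3.27, Ifi44 -3.46 and -2.86, Dtna -2.87 and -3.17, and Bicd1 -2.09 and -3.94. Other genes with a large change here differed little there. Il7 had 0.15 there (adjusted p = 0.36 by the same edgeR test) and -4.10 here, Cyfip2 0.08 and -3.21, Aig1 -0.03 and -2.94, and Tbx4 -0.04 and -2.89. Gm13652, at 3.42 here, had 0.0608 CPM in X2-PDPN and 0.118 CPM in X2. Col9a1 (3.98 there, -1.98 here) and Acta2 (0.85 there, -1.03 here) had opposite signs. The differences between these contrasts were not tested here, and CCR7 was sequenced in batch 1 alone and X2-PDPN in batch 2 alone.

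**Figure D5:**
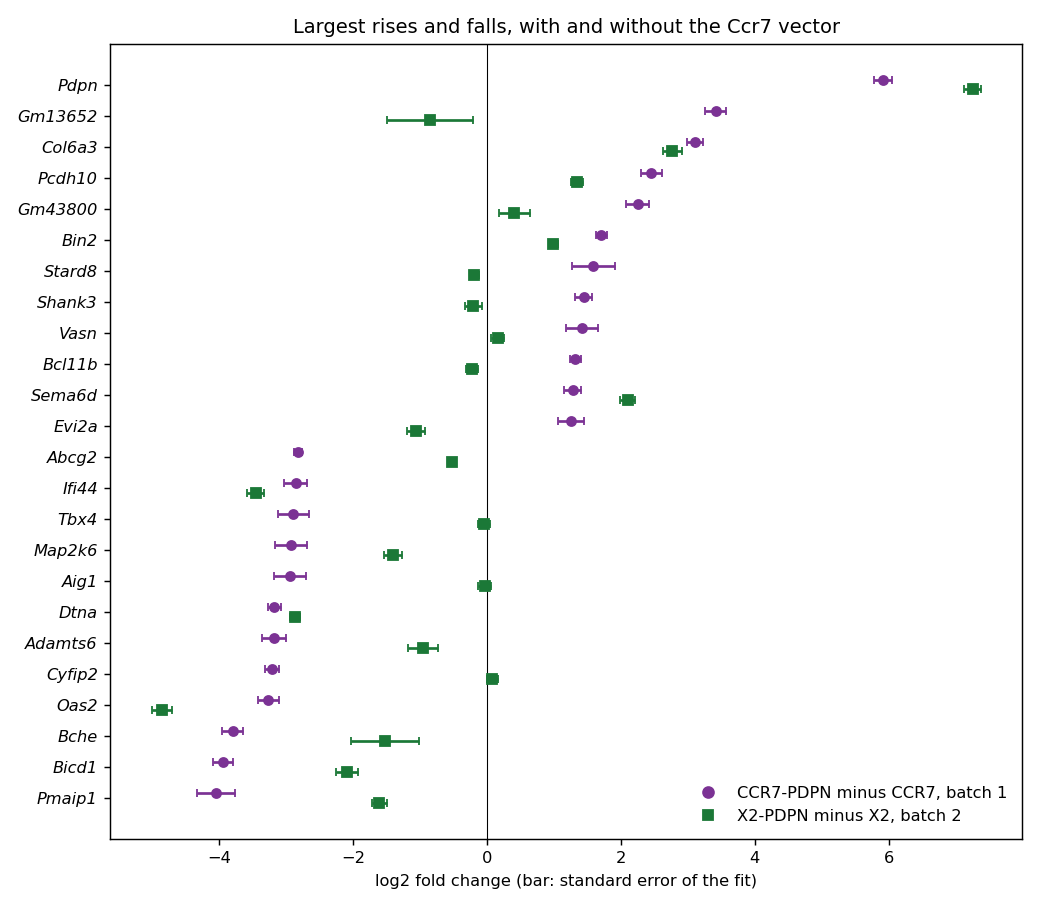
Log2 fold change of CCR7-PDPN against CCR7 in batch 1 and of X2-PDPN against X2 in batch 2, side by side, for the 12 largest rises and 12 largest falls. Pdpn, Col6a3 and Oas2 lie far from 0 in both, and Cyfip2, Aig1 and Tbx4 lie near 0 in X2-PDPN against X2.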

How the data were processed

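Polyadenylated RNA was sequenced as stranded single-end 75 bp libraries. Reads were mapped to GRCm38 by the authors, and the deposited values are raw counts for each Ensembl gene, 1 table per batch, without normalisation. The aligner's version, the strand setting and the treatment of multi-mapping reads are not given in the sources used here. Batch 1 listed 55471 genes and batch 2 13915.

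Symbols came from GENCODE M21 for 55144 identifiers, and gene coordinates were those deposited with the batch 1 counts. With edgeR 4.0.16 in R 4.3.3, genes were filtered by filterByExpr, scaled by TMM and fitted by quasi-likelihood over the 12 libraries of batch 1 (X2, CCR7, CCR7-PDPN), with Benjamini-Hochberg adjustment over 13261 genes. Genes were called past both limits (adjusted p 0.05, log2 fold change 1 in either direction) or past the p limit alone. TPM used exonic lengths, and log2 CPM a prior count of 2. The list levels relative to X2 are the exception. For them a fixed amount was added to each CPM before the log2, which shrinks differences of weakly expressed members. A floor of 3 counts covers counting error only. Replicate pairs differed by more than sampling noise (chi-square per degree of freedom 2.68 to 22.5 over 12 pairs), so none was a duplicate.

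Named were 6 marker genes and Ccr7, the 12 largest rises and 12 largest falls whose mean log2 CPM was 1 or more and whose libraries did not overlap, and list members, by rule up to 6 of each list with the largest significant change plus genes whose role the text explains. Not all of those 6 are named in every list. The mean log2 CPM covered all 12 batch 1 libraries, X2 included. The comparison, the members and the lists were chosen with earlier results of these data known. Alternatives were upper-quartile or RLE factors, DESeq2 1.42.0, other count filters, the 8 libraries alone, a replicate block and each library left out. Scripts were tested on simulated data. Promoters came from RefSeq (GRCm38.p6). Descriptions and figures used pandas 2.3.3, numpy 2.4.6 and matplotlib 3.10.9 in Python 3.11.15.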

Additional observations from a re-analysis of the deposited data

Results flagged for a closer look

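Among 160 genes, 320 groups of 4 libraries were searched for a library far from the other 3, and 22 were found. Chance gives about 1 in 20 groups. Of these, 9 were at CCR7 replicate 1, which was high for Acat2 (35.4 CPM), Mvd (129 CPM), Insig1 (121 CPM), Fads2 (166 CPM), Ankrd1 (1.67 CPM) and Rrm2 (212 CPM) and low for C1ra (10.5 CPM), Plat (7.89 CPM) and Pdgfrb (68.2 CPM). In CCR7 replicate 4, Col13a1 was high at 1.17 CPM. The CCR7-PDPN libraries held the other 12. Replicate 1 was low for Stat2 (40.1 CPM) and Ablim1 (5.64 CPM) and held the single read of Ifit3 (0.0315 CPM). Replicate 2 was low for Gadd45a (23.6 CPM) and Ddit3 (19.2 CPM) and high for Pfkl (229 CPM). Replicate 3 was low for Shank3 (3.59 CPM), Ifi44 (0.563 CPM) and Krt80 (7.00 CPM) and high for Aig1 (0.774 CPM). Replicate 4 was low for Abcg1 (54.9 CPM) and high for Tmsb10 (922 CPM).

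The genes searched above were also compared with X2-PDPN against X2. In 11 of them every CCR7-PDPN library lay on one side of every CCR7 library while X2-PDPN lay on the other side of X2. The difference was not tested. Most of the searched genes were named for their change between the sorts, and 34.1% of all genes tested had no overlap there. The share with opposite directions was not counted over all genes, so the 11 cannot be weighed against it. Of the 11, the genes lower in CCR7-PDPN than in CCR7 had log2 fold changes in X2-PDPN against X2 of 1.39 for Cxcl10, 3.98 for Col9a1, 1.32 for Col24a1, 0.69 for Thbs2, 0.85 for Acta2 and 0.77 for Casp1. Genes higher in CCR7-PDPN had -0.19 for Stard8, -0.20 for Shank3, -1.06 for Evi2a, -0.24 for Gapdh and -0.25 for Ezr.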

How the results depend on the processing

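Against 88 higher and 345 lower genes, a filter of at least 50 counts in 4 libraries gave 40 and 170, with fewer genes tested (10939). Other settings stayed within 1.5 times: DESeq2 gave 93 and 390, RLE and upper-quartile factors 86 and 346 each, no filter 131 and 497, and the 8 libraries alone 75 and 271. With each library left out, 78 to 112 genes were higher and 337 to 368 lower past both limits, and 2431 to 3279 and 2334 to 3261 by the p limit alone. The replicate numbers share only a number, since same-numbered libraries deviated with correlations of -0.12, 0.01, -0.09 and -0.03, and a replicate block gave 89 higher and 340 lower genes. Of the log2 fold changes of named genes under these alternatives, 2366 kept direction and side of the threshold, 19 lost the call (those of Stat2, Erbb2 and Ccr7) and 2 gained it, both of Vegfa, without CCR7-PDPN replicate 3 and without CCR7 replicate 1. The log2 fold change of Slfn9, not called at -0.02, ranged from -0.07293 to 0.04283 with single libraries left out, being 0.0017 without CCR7 replicate 1 and highest without CCR7 replicate 2, and the cause was not tested. Of the list medians, 328 stayed and 31 moved. The 4 libraries of a sort are technical replicates, and the values near 0.1 CPM rest on few reads.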
